A study of Homo sapiens with 9 samples.

Results

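The genes described here are 10 negative regulators and outputs of mitogen-activated protein kinase (MAPK) signalling, chosen by symbol: the MAPK phosphatases DUSP1, DUSP4, DUSP5, DUSP6 and DUSP10, the Sprouty genes SPRY2 and SPRY4, the Sprouty-related genes SPRED1 and SPRED2, and the transcription factor ETV5. They were chosen with earlier results of these data known. All 10 were measured, by 1 probe set each, among 17687 named genes on Clariom S arrays. The cells were HepG2, a human line grown from a liver tumour, in 3 groups of 3 arrays. The labels number the arrays of each group E1 to E3, read here as the 3 independent experiments of the study, and no label states that arrays of the same number were run side by side. All cells carried an adenovirus for 48 h and were then treated for 4 h. CONT cells carried Ad-C, which has no insert, and VDR and VDR+VitD cells carried Ad-VDR, which expresses the human vitamin D receptor. The treatment was vehicle (DMSO) in CONT and VDR, and VitD (calcitriol, the active hormone) at 10 nM in VDR+VitD. VitD was therefore given only on top of Ad-VDR, and no group had VitD without Ad-VDR. Replicates are experiments on a single cell line.

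The labels were checked first. The log2 value of VDR was 6.04 to 6.79 in CONT and 17.45 to 17.87 on the 6 arrays with Ad-VDR. CYP24A1, the enzyme that degrades VitD and a strongly responding target of VDR, lay between 5.25 and 7.84 on the 6 arrays without VitD and between 16.38 and 16.44 with it. The medians of the arrays differed by no more than 0.04. Of 10 hepatocyte markers 8 were analysed, with group means of 13.39 (TTR) to 17.72 (TF). Their summed log2 values were 124.88 to 126.11 in CONT, 126.31 to 127.37 in VDR and 126.66 to 126.92 in VDR+VitD, and none was called with VitD, the lowest adjusted p being 0.0705 (APOA1). For 10 of 11 markers of other liver cell types the sums were 68.74 to 70.20, 68.33 to 70.26 and 67.29 to 70.12. None of these was called with VitD against VDR either, and group means ran from 4.00 for the endothelial STAB2 to 13.04 for KRT19, a bile duct keratin. KRT19 was lower in VDR+VitD than in CONT (log2 fold-change -1.0, adjusted p = 9.22e-04). The part of these shifts in the results below was not tested.

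As background, growth factor receptors signal through Ras, RAF and MEK to the kinase ERK, while stress signals reach JNK and p38. MAPK phosphatases remove phosphate from both the threonine and the tyrosine of the activation loop and so switch the kinases off: DUSP6 acts on ERK in the cytoplasm and DUSP5 on ERK in the nucleus, DUSP1 and DUSP4 are nuclear enzymes with a broader range, and DUSP10 prefers JNK and p38. Sprouty and SPRED proteins act higher up, between receptor and RAF, and SPRED proteins bring neurofibromin to Ras. Many of these genes are themselves switched on by ERK, which makes them feedback inhibitors, and ETV5, an ETS factor of the PEA3 group, is an output of the same route. DUSP10 is a known target of VDR in prostate cells, and DUSP1 has also been linked to VDR.

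Proximal promoters are shown for 4 of the 5 genes that changed with VitD, because these moved in opposite directions. RefSeq promoter windows on GRCh38.p14 were used for 7 of the 10 genes, all but DUSP4, DUSP5 and ETV5, in 11 entries, each cut to the 250 bases before an annotated start site. The entries are given 5′ to 3′ on the strand of the gene, with matches to the searched motifs in capitals. DUSP1 and SPRED2 rose with VitD, and DUSP6 and SPRY4 fell. Of the 2 windows of SPRED2 the first is printed.
DUSP1, chr5:172771196-172771445, minus strand: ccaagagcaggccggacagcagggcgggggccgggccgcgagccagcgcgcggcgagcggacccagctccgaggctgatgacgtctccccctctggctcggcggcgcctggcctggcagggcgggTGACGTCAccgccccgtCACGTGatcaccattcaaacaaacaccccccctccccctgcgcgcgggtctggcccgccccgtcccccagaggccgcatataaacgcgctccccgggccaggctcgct
SPRED2, chr2:65432600-65432849, minus strand: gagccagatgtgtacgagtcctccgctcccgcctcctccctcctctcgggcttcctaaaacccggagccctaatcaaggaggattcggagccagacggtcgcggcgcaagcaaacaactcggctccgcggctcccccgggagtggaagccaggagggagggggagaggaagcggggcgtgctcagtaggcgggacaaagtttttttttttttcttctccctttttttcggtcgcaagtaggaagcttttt
DUSP6, chr12:89352502-89352751, minus strand: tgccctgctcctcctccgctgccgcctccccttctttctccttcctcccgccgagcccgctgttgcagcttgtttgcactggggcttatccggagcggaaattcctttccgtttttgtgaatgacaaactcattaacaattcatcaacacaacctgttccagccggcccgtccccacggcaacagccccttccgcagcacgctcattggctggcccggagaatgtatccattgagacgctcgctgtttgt
SPRY4, chr5:142324248-142324497, minus strand: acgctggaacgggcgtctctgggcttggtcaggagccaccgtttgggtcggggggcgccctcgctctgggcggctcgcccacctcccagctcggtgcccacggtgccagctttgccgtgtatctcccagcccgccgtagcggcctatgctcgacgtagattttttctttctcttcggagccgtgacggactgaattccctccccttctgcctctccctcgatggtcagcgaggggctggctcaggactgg

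Both strands of the 11 windows were searched for the cAMP response element (TGACGTCA), the AP-1 site (TGACTCA), the E-box (CACGTG), an ETS site (CCGGAAG), the CArG box of serum response factor, the DR3 element, the pair of hexamers that VDR binds with its partner RXR, and a single such hexamer (AGGTCA or AGTTCA or GGGTCA or GGTTCA). DUSP1 held the cAMP response element, starting 125 bases before the start site, and the E-box, starting 108 bases before it, and these did not overlap. Among 35116 promoters of the same length, 1.65% held the cAMP response element, 6.34% the E-box, 4.2% the AP-1 site, 8.52% the ETS site, 1.16% the CArG box, 0.0655% a DR3 element and 33.8% a single hexamer. Outside DUSP1 the matches were single hexamers, 208 and 46 bases before the second start site of DUSP10 and 208 bases before the second of SPRED2, and the other 8 windows held no match. The DUSP1 window was also the most CpG-rich of the 4 printed, with 30 CpG and 74.4% GC, against 22 CpG in SPRY4, 19 in SPRED2 and 16 in DUSP6. Among the windows not printed, SPRED1 had 30 CpG and 78.4% GC and the first of SPRY2 23 CpG, and neither gene changed with VitD. The medians over all promoters were 11 CpG and 58% GC. These matches describe letters within 250 bases, and elements farther away were not searched.

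VDR+VitD against VDR asks what VitD changed in cells that already expressed VDR. Calls required an adjusted p under 0.05 (limma, Benjamini-Hochberg over all 17687 genes) together with a fold-change over 1.5. Of the 10 genes, 5 were called: DUSP1, DUSP5 and SPRED2 rose, and DUSP6 and SPRY4 fell. Among all genes 4.16% were called, 2.62% as higher and 1.53% as lower. The median absolute log2 fold-change of the 10 genes was 0.59, and that of all genes was 0.14. Since the signs were mixed, the signed median was 0.05, with -0.02 for all genes. Because the 10 genes were chosen with earlier results of these data known, these shares and medians describe them and are not a test. The samples are plotted gene by gene in the values by group.

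**Figure D1:**
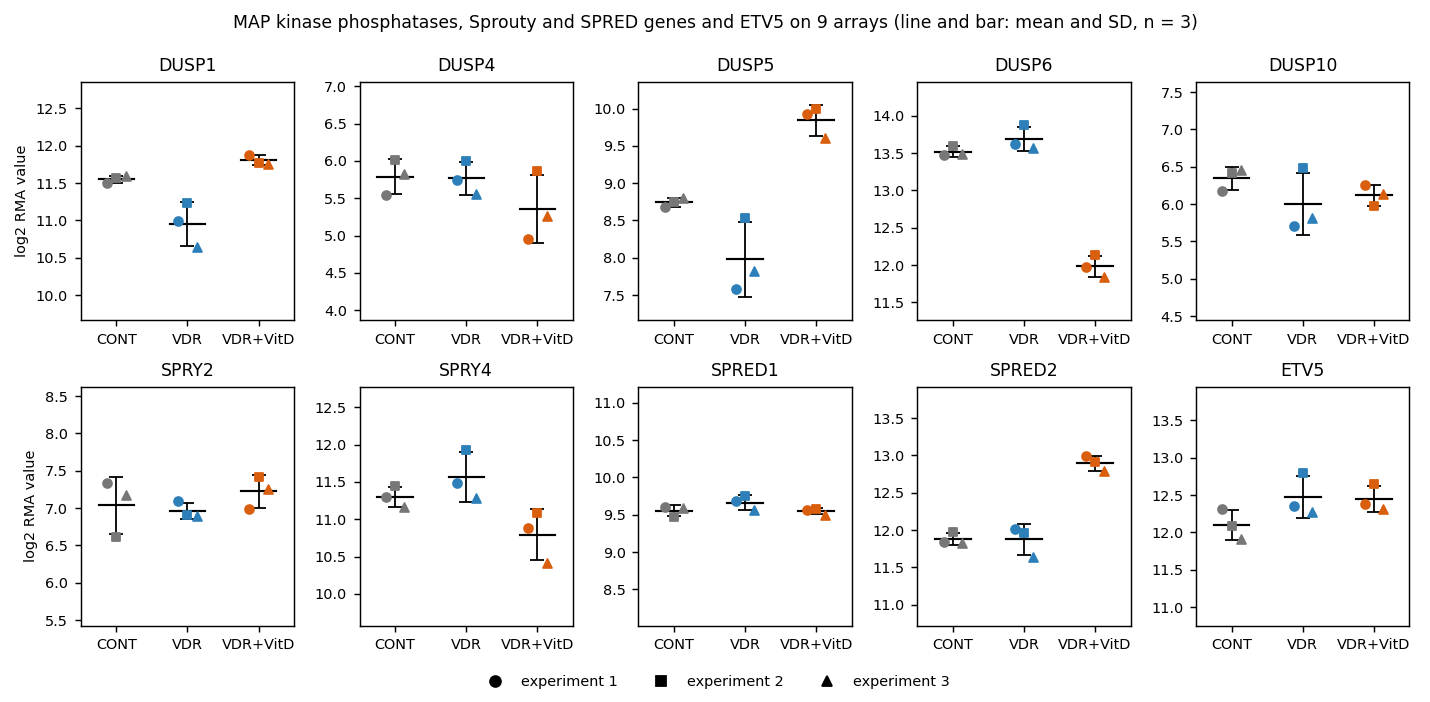
Log2 RMA values (vertical axis, the same height of scale in every panel) of the 10 genes on 9 arrays by group, with symbols for the experiments and lines and bars for mean and SD (n = 3). With VitD, DUSP5 lies above all other arrays at 9.61 to 9.99 and DUSP6 below all others at 11.84 to 12.13, while SPRED1 stays between 9.47 and 9.75 in every group.

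Among the 10 genes, the ERK-selective phosphatases moved in opposite directions. DUSP5, the nuclear one, had log2 values of 7.58, 8.54 and 7.82 in VDR and 9.92, 9.99 and 9.61 in VDR+VitD, for experiments 1, 2 and 3. All VitD arrays lay above all VDR arrays, and the VDR array of experiment 2 was the highest of its group. The means were 7.98 ± 0.50 and 9.84 ± 0.20 (SD, n = 3), a log2 fold-change of 1.86 (SE 0.20, 95% interval 1.43 to 2.29, adjusted p = 3.07e-05), or 3.63-fold. Within the experiments the rise was 2.34, 1.45 and 1.79.

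DUSP6, the cytoplasmic one and a widely used readout of ERK activity, had log2 values of 13.62, 13.88 and 13.57 in VDR and 11.98, 12.13 and 11.84 in VDR+VitD. The groups did not overlap, and the 3 VitD arrays stood together well below the rest. The log2 fold-change was -1.71 (SE 0.13, 95% interval -2.00 to -1.42, adjusted p = 1.11e-06), a 3.26-fold lower level. It was the most even of the large changes, with differences of -1.64, -1.75 and -1.73 in the 3 experiments. DUSP5 and DUSP6 kept their calls in all 22 alternative settings tried for this comparison, with log2 fold-changes of 1.48 to 2.14 and -1.78 to -1.61.

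Of the phosphatases with a broader range, DUSP1, an immediate-early gene of growth factor and stress signals, rose. Its log2 values were 10.99, 11.23 and 10.64 in VDR and 11.88, 11.77 and 11.76 in VDR+VitD. The VitD arrays lay within 0.12 of each other and above all VDR arrays, which spanned 0.59. The log2 fold-change was 0.85 (SE 0.15, 95% interval 0.53 to 1.17, adjusted p = 0.00249), or 1.80-fold, and was 0.89, 0.54 and 1.12 within the experiments. Without experiment 1 the value was 0.83 with an adjusted p of 0.0728. Against all 6 arrays without VitD, CONT included, it was 0.55, below the fold threshold.

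DUSP4, a nuclear phosphatase, was not called. Its log2 values were 5.75, 6.0 and 5.56 in VDR and 4.96, 5.86 and 5.26 in VDR+VitD, with overlapping groups and a difference of -0.41 (95% interval -0.85 to 0.03, adjusted p = 0.384). DUSP10, which prefers JNK and p38, had log2 values of 5.71, 6.48 and 5.81 in VDR and 6.25, 5.97 and 6.14 in VDR+VitD. The difference was 0.12 (95% interval -0.27 to 0.51, adjusted p = 0.856), positive in experiments 1 and 3 and negative in experiment 2. Both genes lay near the array medians of 6.16 to 6.20. Their spread within groups was the widest of the phosphatases together with DUSP5, at SDs pooled over the 3 groups of 0.32 and 0.27 against 0.31.

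The inhibitors upstream of RAF also went both ways. SPRED2 had log2 values of 12.02, 11.96 and 11.64 in VDR and 12.99, 12.91 and 12.79 in VDR+VitD. Every VitD array lay above every other array of the study. The log2 fold-change was 1.02 (SE 0.14, 95% interval 0.73 to 1.32, adjusted p = 2.34e-04), or 2.03-fold, with 0.97, 0.95 and 1.15 within the experiments. Its relative SPRED1 had log2 values of 9.68, 9.75 and 9.56 in VDR and 9.56, 9.58 and 9.50 in VDR+VitD. SPRED1 differed by -0.12 (95% interval -0.38 to 0.14, adjusted p = 0.756), negative in 3 of 3 experiments with overlapping groups, so a change as large as that of SPRED2 lay outside its interval.

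SPRY4 had log2 values of 11.48, 11.93 and 11.28 in VDR and 10.88, 11.08 and 10.42 in VDR+VitD. The groups did not overlap, and in both of them experiment 2 was highest and experiment 3 lowest. The log2 fold-change was -0.77 (SE 0.19, 95% interval -1.18 to -0.36, adjusted p = 0.0282), a 1.71-fold lower level, with -0.60, -0.85 and -0.86 within the experiments. The call was lost without any of the VDR replicates 1 (adjusted p = 0.0607) and 2 (0.128) or the VDR+VitD replicates 1 (0.0672) and 3 (0.130), and without any 1 of the 3 experiments.

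SPRY2 had log2 values of 7.09, 6.91 and 6.90 in VDR and 6.99, 7.42 and 7.26 in VDR+VitD. The groups overlapped, and the difference was 0.26 (95% interval -0.13 to 0.64, adjusted p = 0.587), negative in experiment 1 and positive in the other two. ETV5, the ETS factor, had log2 values of 12.36, 12.80 and 12.28 in VDR and 12.38, 12.65 and 12.32 in VDR+VitD. Its difference was -0.03 (95% interval -0.38 to 0.32, adjusted p = 0.967), and the VitD arrays lay within the range of the VDR arrays. The interval of ETV5 leaves out a fall of the size seen in DUSP6.

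**Figure D2:**
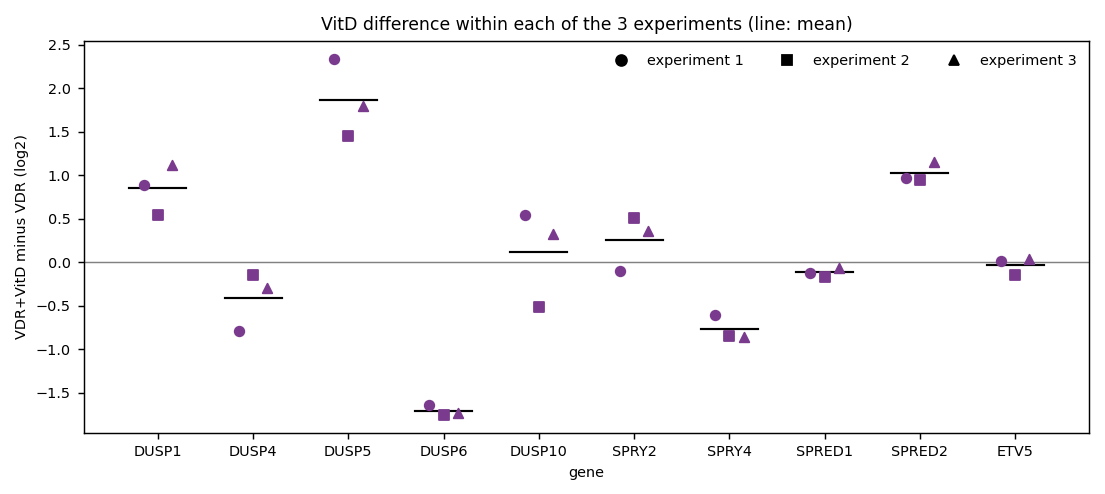
Difference VDR+VitD minus VDR in log2 (vertical axis) within each of the 3 experiments (symbols) for the 10 genes, with the mean as a line. The 3 experiments share their sign for the 5 called genes and also for DUSP4 and SPRED1, which were not called. In the called genes the groups do not overlap, so any pairing of arrays would give the same sign. Of the called genes DUSP6 is the tightest at -1.75 to -1.64, and DUSP10 is spread from -0.51 to 0.54.

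The arrays of one group also shared an order. In VDR, experiment 2 gave the highest value for 8 of the 10 genes and experiment 3 the lowest for 8. In VDR+VitD, experiment 2 was highest for 7 and experiment 3 lowest for 7. Over all genes, experiment 2 was highest for 35.1% of genes in VDR and 30.8% in VDR+VitD, and experiment 3 lowest for 33.5% and 33%. In CONT no experiment was highest for more than 4 of the 10 genes, and experiment 1 was lowest for 5, beside 32.3% of all genes.

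VDR against CONT asks what Ad-VDR changed in the absence of VitD. The VDR arrays are shared with the comparison above, so the values of both are given side by side and not compared by a test. None of the 10 genes was called by limma, against 0.407% of all genes, and 3 had an unadjusted p under 0.05 (DUSP1, DUSP5 and ETV5), as had 9.5% of all genes. With an intensity trend in limma 1 was called, DUSP1, and with a filter to the 8000 most variable genes also 1, DUSP5.

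DUSP1 lay at 11.50, 11.57 and 11.59 in CONT, above all VDR arrays, with a difference of -0.60 (95% interval -0.92 to -0.28, adjusted p = 0.117). DUSP5 lay at 8.68, 8.75 and 8.80 in CONT, also above all VDR arrays, with a difference of -0.76 (95% interval -1.20 to -0.33, adjusted p = 0.157). Both genes were tight in CONT, with SDs of 0.05 and 0.06, and wide in VDR, with 0.30 and 0.50. Without VDR replicate 2 the difference of DUSP5 was -1.04 (adjusted p = 0.0101), a call.

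ETV5 lay at 12.31, 12.09 and 11.91 in CONT, and its difference was 0.38 (95% interval 0.02 to 0.73, adjusted p = 0.492) with overlapping groups. DUSP6 lay at 13.47, 13.60 and 13.49 in CONT, a difference of 0.17 (adjusted p = 0.767), and SPRY4 at 11.30, 11.44 and 11.17, a difference of 0.26 (adjusted p = 0.735). DUSP10 lay at 6.17, 6.42 and 6.45 in CONT, and its difference was -0.35 (95% interval -0.74 to 0.05, adjusted p = 0.592). For the remaining genes, DUSP4 (5.54, 6.01 and 5.82 in CONT), SPRY2 (7.33, 6.61 and 7.17), SPRED1 (9.60, 9.47 and 9.59) and SPRED2 (11.84, 11.97 and 11.82), the differences lay between -0.07 and 0.11.

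VDR+VitD against CONT sets the full treatment against cells with neither VDR vector nor hormone. Here 3 of the 10 genes were called, DUSP5 and SPRED2 as higher and DUSP6 as lower, against 4.81% of all genes (2.69% higher and 2.12% lower). DUSP6 fell with a log2 fold-change of -1.54 (SE 0.13, adjusted p = 3.02e-06), DUSP5 rose with 1.10 (SE 0.20, adjusted p = 0.00339) and SPRED2 with 1.02 (SE 0.14, adjusted p = 2.19e-04). DUSP6 and SPRED2 thus had nearly the same values against both groups without VitD, while the value of DUSP5 was 1.86 against VDR and 1.10 against CONT.

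For DUSP1 the choice of reference decided the call. Its values were 11.76 to 11.88 with VitD, 10.64 to 11.23 in VDR and 11.50 to 11.59 in CONT, an order in which no groups overlapped, and the difference from CONT was 0.25 (95% interval -0.07 to 0.57, adjusted p = 0.444). SPRY4 differed from CONT by -0.51 (95% interval -0.92 to -0.10, adjusted p = 0.166), with no overlap. ETV5 differed by 0.35 (95% interval -0.01 to 0.70, adjusted p = 0.311) and DUSP4 by -0.43 (95% interval -0.87 to 0.01, adjusted p = 0.318), and neither was called. SPRY2 at 0.19, SPRED1 at -0.01 and DUSP10 at -0.23 were not called either. The order of the group means was VDR, CONT, VDR+VitD for DUSP1 and DUSP5 and VDR+VitD, CONT, VDR for DUSP6 and SPRY4, with overlap between CONT and VDR in DUSP6 and SPRY4. SPRED2 had means of 11.88 and 11.87 in CONT and VDR.

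**Figure D3:**
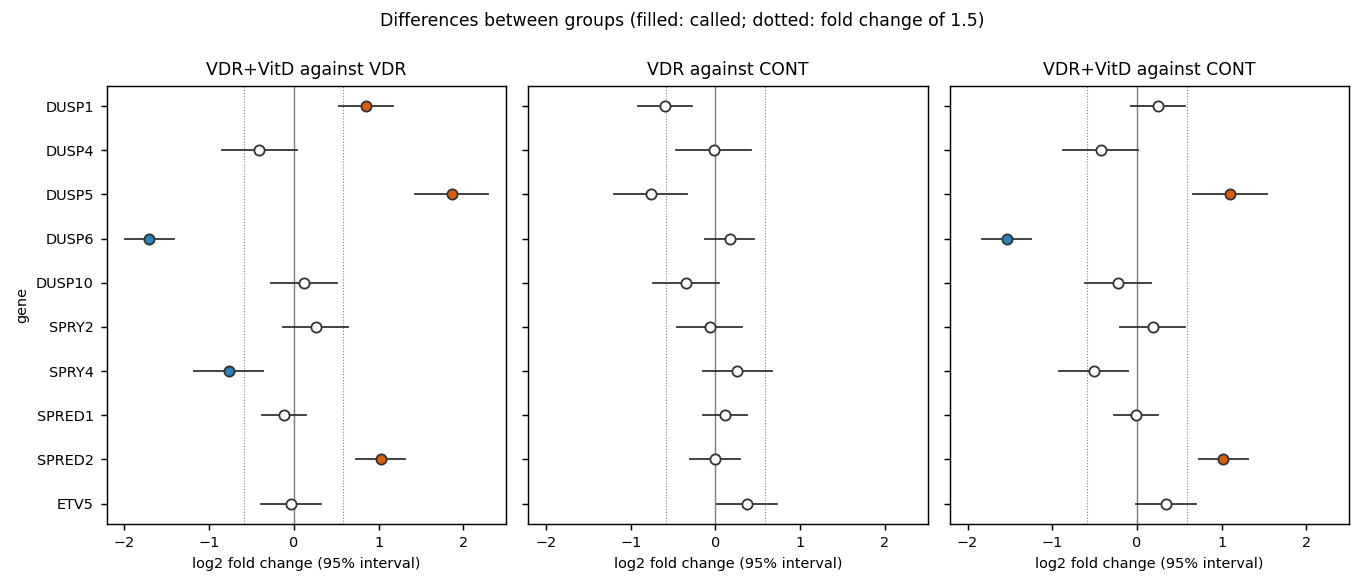
Log2 fold-changes (horizontal axis) with 95% intervals from limma for the 10 genes in the 3 comparisons, filled where called and with dotted lines at a fold-change of 1.5. DUSP5, DUSP6 and SPRED2 are filled in both comparisons with VDR+VitD, DUSP1 and SPRY4 only against VDR, and no gene is filled for VDR against CONT.

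Other genes of the same routes were read from lists that did not hold the 10 genes. These lists, too, were chosen with earlier results of these data known. Of 5 other MAPK phosphatases 1 was called with VitD against VDR, DUSP8, which acts on JNK and p38 (log2 fold-change 0.61, adjusted p = 0.0340). Its log2 values were 7.01, 7.10 and 6.80 in VDR and 7.83, 7.30 and 7.62 with VitD, and it lost the call without VDR replicate 1 (adjusted p = 0.0787) or 3 (0.129) or VDR+VitD replicate 1 (0.159) or 3 (0.103). Not called by limma were DUSP16 (0.38, adjusted p = 0.204), DUSP2 (0.14, 0.789), DUSP9 (0.02, 0.974) and DUSP7 (-0.25, 0.633). Of 9 other Sprouty, SPRED and receptor feedback inhibitors none was called by limma, with 2 at an unadjusted p under 0.05, a level that 15.1% of all genes reached in this comparison. The one with the lowest p was SPRY1, with a difference of -0.48 (adjusted p = 0.0911).

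In the ERK cascade itself, from receptors to kinases, 1 of 18 genes was called: FGFR3, a receptor for fibroblast growth factors. Its log2 values were 9.38, 8.30 and 8.53 in VDR and 10.85, 10.89 and 10.88 in VDR+VitD, with CONT at 8.74, 8.71 and 8.60. The VitD arrays were the tightest group, and the log2 fold-change was 2.14 (SE 0.21, adjusted p = 1.07e-05), or 4.40-fold. Of the other 17 genes 4 had an unadjusted p under 0.05. None of 11 genes of the JNK and p38 cascade was called, with 3 at an unadjusted p under 0.05, the lowest p being that of MAP3K1, an upstream kinase (-0.39, adjusted p = 0.174). None of 12 ligands of ERK-coupled receptors was called, with 2 at an unadjusted p under 0.05, the lowest p being that of the liver hormone FGF21 (0.41, adjusted p = 0.178).

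Of 14 ERK-responsive genes 3 rose and 1 fell, and 10 were not called. In limma 8 of the 14 had an unadjusted p under 0.05, a level that 15.1% of all genes reached. EGR1, an immediate-early zinc finger factor, had log2 values of 12.57, 12.80 and 12.04 in VDR and 14.03, 13.70 and 13.11 with VitD (1.14, adjusted p = 0.00522). EPHA2, an ephrin receptor, rose by 1.01 (adjusted p = 0.00433) and the G1 cyclin CCND1 by 0.77 (adjusted p = 9.68e-04), the latter with 0.80, 0.72 and 0.80 within the experiments. PHLDA1, a pleckstrin homology-like protein, had log2 values of 13.19, 13.73 and 12.86 in VDR and 12.64, 12.60 and 12.43 with VitD. It fell by 0.70 on the log2 scale, with an adjusted p of 0.0497. PHLDA1 lost the call without any 1 of these 6 arrays other than VDR replicate 3, for example without VDR replicate 2 (-0.47, adjusted p = 0.179). FGFR3, EGR1, EPHA2 and CCND1 kept theirs without any 1 of the 6.

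Both the 10 genes and the ERK-responsive list held called genes of either sign. The median log2 fold-change of the ERK-responsive list was -0.02 and its median absolute value 0.41, beside 0.14 for all genes. In VDR against CONT none of these lists had a called gene, with 1 of 14 ERK-responsive genes (EGR1, 0.63, adjusted p = 0.339) and 2 of 18 ERK cascade genes at an unadjusted p under 0.05. In VDR+VitD against CONT, FGFR3 (2.19), EGR1 (1.77), EPHA2 (0.83) and CCND1 (0.59) were called as higher and PHLDA1 (-0.80) and MAP3K1 (-0.68) as lower. DUSP8 was not called against CONT (0.57, adjusted p = 0.0453 by limma), its fold-change of 1.48 lying below the threshold of 1.5. The genes with the lists are plotted by log2 fold-change.

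**Figure D4:**
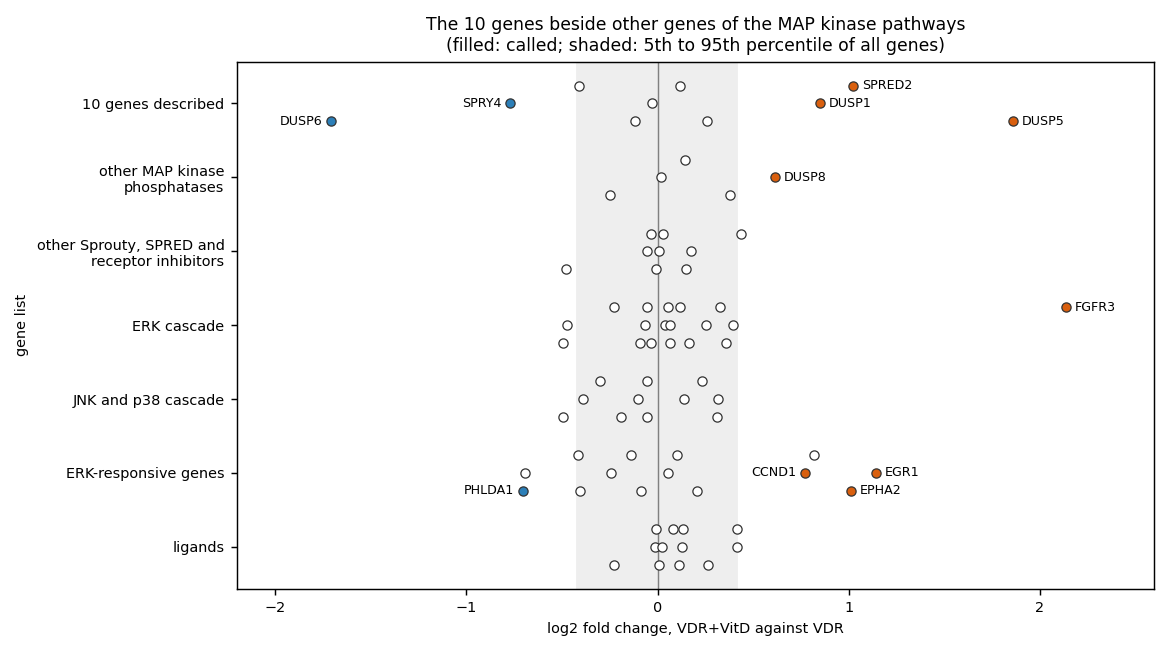
Log2 fold-change of VDR+VitD against VDR (horizontal axis) for the 10 genes and for 6 lists of other MAPK pathway genes, 1 point a gene, filled where called, over the 5th to 95th percentile of all genes (-0.42 to 0.41, shaded). DUSP6 at -1.71 is the lowest point and FGFR3 at 2.14 the highest, and the cascade and ligand lists lie almost wholly within or next to the shaded range.

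The widest spans of group means among the 10 genes were those of DUSP5 (1.86) and, in the opposite direction, DUSP6 (1.71). The genes of the table whose values ran most like DUSP5 over the 9 arrays were PPL (Pearson r = 0.984), MYADM (0.979), MYEOV (0.977), TMC7 (0.973) and ADAP1 (0.973). In these, as in DUSP5, VDR replicate 2 was the highest VDR array. Their log2 fold-changes with VitD against VDR were 0.43, 0.96, 1.75, 1.51 and 1.22, and all but that of PPL (adjusted p = 0.0756) were called. Those most like DUSP6 were PROX1 (0.990), FOXA2 (0.989), FOXA1 (0.988), CNPPD1 (0.987) and PDE4D (0.985), with log2 fold-changes of -1.80, -1.69, -1.58, -0.84 and -1.44, all called. PPL had low values, from 4.25 to 4.84, below the array medians of 6.16 to 6.20. The 9 arrays share 3 groups and 3 experiments, so these correlations hold the difference between groups and are a description over 9 arrays. Genes picked by correlation share the order of the arrays and the change with VitD largely through that choice.

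**Figure D5:**
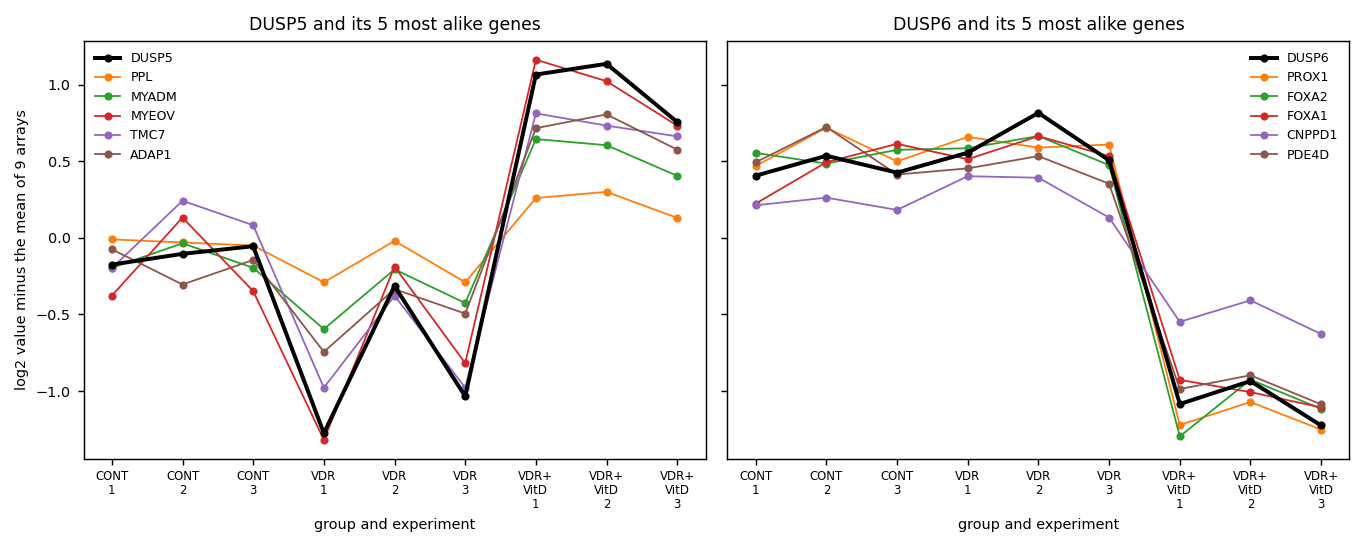
Log2 values minus each gene's mean over the 9 arrays (vertical axis) for DUSP5 and DUSP6 (black) and the 5 genes most like each, by group and experiment. Around DUSP5 the VDR arrays of experiments 1 and 3 dip below CONT, and around DUSP6 the 6 arrays without VitD lie together above the 3 with it.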

How the data were processed

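The deposited table holds log2 values of 21448 probe sets (transcript clusters) of 9 Clariom S arrays, which the authors made by RMA, that is background correction, quantile normalization and summarization, with Transcriptome Analysis Console 4.0.2 per the submitters' processing notes. Quantile normalization gives all arrays the same distribution, so a shift of most genes would not be visible. The sources used here do not name the genome build of the array annotation. In the platform annotation 17709 probe sets had 1 symbol and 3739 none. All 17709 were matched by Entrez ID to RefSeq, whose symbols were used. Means over the probe sets of 20 genes left 17687 genes. Intensities give no molecule counts, and 3 arrays per group limit the precision.

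Groups and experiments were taken from the labels. Limma 3.58.1 (R 4.3.3; lmFit, eBayes) was fitted to all 9 arrays by group alone, with Benjamini-Hochberg adjustment over all genes; the steps were tested on simulated data. The study's methods name no block, and the experiment number as a block was an alternative. Other alternatives were the arrays fitted, filters on variation (8000 genes) and level, the prior, a test against the fold of 1.5, array scaling and weights, and leaving out each array. Leaving out each experiment was added after seeing the data. All 10 genes, the check genes VDR and CYP24A1, up to 4 called genes of each list (or the one with the lowest p) and the 5 genes most correlated with DUSP5 and DUSP6 are named. The other MAPK phosphatases are all named as well. Genes and lists were chosen with earlier results of these data known. List genes with no probe set in the table used were not analysed here. Promoters are RefSeq windows on GRCh38.p14, searched in Python 3.11.15.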

Additional observations from a re-analysis of the deposited data

How the results depend on the processing

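With VitD against VDR, 5 of the 10 genes were called, 2 (DUSP5 and DUSP6) in a test against a fold-change of 1.5, and 3 without experiment 1. Leaving out single arrays gave 4 to 5 calls and leaving out experiments 3 to 4. SPRY4 was called by the fit to all arrays and not by the fit to the 6 arrays compared (adjusted p = 0.0571), and SPRED2 was lost only in the test against 1.5 (0.219). For VDR against CONT, 0 genes were called, and 1 with the filter to 8000 genes (DUSP5, adjusted p = 0.0486), 1 with an intensity trend (DUSP1, 0.0394), 1 with a trend and robust prior (DUSP1, 0.0397) and 0 to 1 without single arrays. For VDR+VitD against CONT, 3 were called, and 1 (DUSP6) in the test against 1.5. With the experiment as a replicate block, the counts stayed at 5, 0 and 3, and the adjusted p of SPRY4 against VDR was 0.00341. The arrays may share only a number: deviations from group means correlated with r of 0.042 to 0.145 in the 9 pairs of the same number, not all over 0.1, and -0.096 to 0.010 in the 18 others, so every array correlated best, among those of other groups, with its own number, a hint from the data and not from the design. Only differences that were not called changed sign. With VitD against VDR, ETV5 was 0.012 with array weights, 0.16 against all 6 arrays without VitD, and 0.03 without experiment 2, and DUSP10 was -0.053 against these 6 arrays and -0.09 without experiment 1; without single arrays ETV5 ran from -0.13 to 0.13 and DUSP10 from -0.025 to 0.36. For VDR against CONT, SPRED2 was 0.015 with array weights, and without single arrays SPRED2 ran from -0.077 to 0.11, DUSP4 from -0.14 to 0.09 and SPRY2 from -0.28 to 0.077. Against CONT with VitD, SPRY2 ran from -0.027 to 0.33 and SPRED1 from -0.048 to 0.017.

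Among all genes, VDR+VitD against VDR called 735, 188 in the test against 1.5 and 460 to 522 without 1 experiment. VDR against CONT called 72, and 140 with the block, 141 with the filter, 142 with a trend, 11 in the test against 1.5 and 27 to 62 without single arrays. VDR+VitD against CONT called 851, and 207 in the test against 1.5. Scaling the arrays again moved the median of all genes by less than 0.05 on the log2 scale. Signal over background was not measured here, so its limit on genes near the array medians, such as DUSP4 and DUSP10, was not tested.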
